A study of Homo sapiens with 15 samples.

Results

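Interferon-stimulated genes were followed through a series of RNA-seq libraries from breast cancer cells in which the RNA-binding protein RBM47 was switched on by increasing amounts of doxycycline. The 43 genes were fixed by name, as genes widely known to be induced by interferons, and all 43 were among the 23368 genes of the count table. A mean of at least 10 normalized counts was reached by 39 of them in WT6, 41 in WT10 and 40 in MUT3, by 38 in each of the 3 clones, and by none of the clones for RSAD2 and CMPK2.

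There were 15 libraries, from 3 clones that each grew from a single cell, and each clone contributed 1 library at each of the doxycycline doses 0, 1, 2.5, 5 and 25 ng/ml. WT6 and WT10 carried wild type RBM47 and MUT3 carried the mutant RBM47-I281fs, a frameshift that shortens the protein, each as a FLAG-tagged copy in a retroviral vector that doxycycline turns on. The paper reports little mutant protein although its mRNA was abundant, and takes the mutant to be unstable and inactive. The labels give MDA231, a triple negative breast cancer line, for all 3 clones, while the methods of the study derive WT6 from the brain metastatic line CN34-BrM2 and WT10 and MUT3 from the brain metastatic MDA231 derivative 231-BrM2. All doses of a clone therefore shared 1 founder cell, untreated cells carried the vector too, and no dose had a replicate culture. The p-values below measure the scatter of these libraries around a line over dose, and a difference between clones cannot be told apart from a difference between founder cells or, for WT6, between parental lines.

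Interferons are secreted proteins that cells release when they sense viral nucleic acid. Type I and type III interferons signal through receptor-bound JAK kinases to a complex that holds STAT2 and IRF9 and binds the interferon-stimulated response element in promoters. The induced genes encode sensors of foreign RNA, transcription factors that amplify the response, and effectors that block virus entry, translation, assembly or release. Many tumour cell lines keep part of this set switched on without added interferon.

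The response element was looked for in the promoters of the members, since it is the sequence that links them. Its core was searched as GAAA, any 2 bases, GAAA on both strands, overlapping matches counted separately, in the RefSeq promoter windows on GRCh38.p14 that run from 250 bases before to 50 bases after the start site. A window was at hand for 33 members, not for DHX58, IRF7, IFIT2, OAS2, OASL, IFITM2, MX2, GBP2, USP18 and TRIM22. The core was present in 21 of the 33 (63.6%), against 3.57% of all 35116 promoters, and 13 members held it more than once. Windows of 30 bases, 5′ to 3′ on the strand of the gene with the core in capitals, are shown for members that rose with dose, that fell and that did neither; where the core lies on the other strand it reads TTTC, any 2 bases, TTTC.
ISG15: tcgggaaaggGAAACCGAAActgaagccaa
IFI6: ggagagagggGAAAATGAAActctgcagag
BST2: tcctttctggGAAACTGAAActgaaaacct
IFITM3: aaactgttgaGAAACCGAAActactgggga
MX1: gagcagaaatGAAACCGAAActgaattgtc
ISG20: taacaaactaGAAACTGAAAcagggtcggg
IFI44: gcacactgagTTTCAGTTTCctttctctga
IFIT1: cactttccccTTTCGGTTTCcctaggtttc
IFIT5: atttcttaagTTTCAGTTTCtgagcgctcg
OAS3: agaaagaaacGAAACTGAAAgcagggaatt
HERC5: aaacattatgTTTCGTTTTCcactggagct
EPSTI1: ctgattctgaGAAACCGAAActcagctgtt
The positions of these windows on GRCh38.p14 were chr1:1013380-1013409 for ISG15 (plus strand), chr1:27672329-27672358 for IFI6 (minus strand), chr19:17405741-17405770 for BST2 (minus strand), chr11:320876-320905 for IFITM3 (minus strand), chr21:41420559-41420588 for MX1 (plus strand), chr15:88638937-88638966 for ISG20 (plus strand), chr1:78649761-78649790 for IFI44 (plus strand), chr10:89392510-89392539 for IFIT1 (plus strand), chr10:89414554-89414583 for IFIT5 (plus strand), chr12:112938321-112938350 for OAS3 (plus strand), chr4:88457035-88457064 for HERC5 (plus strand) and chr13:42992272-42992301 for EPSTI1 (minus strand). A match is a description of the letters in the window and not of a bound site. Of 20 members with the core that were tested for a dose slope, 5 rose and 1 fell in WT10, and 7 rose and 3 fell in WT6. Of 9 tested members without it, 3 rose (OAS1, SAMD9L and IFI35) and 0 fell in WT10, and 4 rose and 0 fell in WT6. Of all genes, 10.2% rose and 9.83% fell in WT10, and 29.2% and 28.3% in WT6. OAS3, IFIT5, HERC5 and EPSTI1, which fell in a wild type clone, each held at least 1 match. A link between the core and the slopes was not tested.

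RBM47 was far higher at 25 ng/ml than in untreated cells of every clone. It read 258, 3137, 8094, 3966 and 10425 normalized counts in WT6 at 0, 1, 2.5, 5 and 25 ng/ml, the order used throughout, 168, 827, 2822, 8134 and 19877 in WT10 and 73.8, 92.1, 336, 949 and 22084 in MUT3. The library labelled WT6 at 5 ng/ml thus lay below the one at 2.5 ng/ml. A normalized count is the number of reads on a gene scaled by a size factor for sequencing depth, and 14955172 to 44771871 reads fell on genes per library. The WT6 libraries at 5 and 25 ng/ml also stood apart from the other doses. Relative to untreated WT6, the shortest 20% of the tested transcripts had a median log2 change of 0.60 and 0.58 in these libraries and the longest 20% one of -0.41 and -0.46, whereas in each other treated library both medians lay between -0.08 and 0.06. All 8 markers of a breast cancer line, among them vimentin, CD44 and keratin 18, were detected in each clone. Of 7 immune cell markers, CD14 and CD68, which are also made outside the immune system, reached a mean of 10, and the list summed to between 3192 and 5335 in WT10, 2142 and 2928 in WT6 and 3243 and 3600 in MUT3. The T cell marker CD3E was at 0 in all 15 libraries, and CD68 was highest in WT10 at 25 ng/ml, at 5307 normalized counts. Of 4 fibroblast markers, DCN read 190, 226, 222, 454 and 735 in WT6 and at most 1.08 in the other clones, and COL1A1 was highest in WT10 at 25 ng/ml, at 493. COL1A2 was at most 3.29, in untreated WT6, and PDGFRB ran from 3.75 to 24.9. Of 3 endothelial markers 0 reached a mean of 10. Of 4 brain cell markers GFAP and MBP did in each clone. Of 6 luminal or HER2 markers ERBB2, GATA3 and EPCAM did in each clone, and PGR in WT10. The part of these genes in the results below was not tested.

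In WT10, 10 of the 38 members rose with dose (IFIT2, OAS1, OAS2, MX1, BST2, ISG20, SAMD9L, IFI35, IFI44 and IFI44L) and EPSTI1 fell. Across all 12644 genes tested, 10.2% rose and 9.83% fell. In WT6, 14 members rose (STAT2, IRF7, IRF9, OAS1, IFITM1, IFITM2, IFITM3, ISG15, USP18, BST2, ISG20, IFI6, IFI35 and IFI44) and 3 fell (IFIT5, OAS3 and HERC5), against 29.2% and 28.3% of all genes. In MUT3, 0 members passed the test, as did 0% of all genes. RBM47 itself, at 73.8 normalized counts in untreated MUT3 and 22084 at 25 ng/ml, did not pass there either (adjusted p = 0.052, limma). The 0 therefore does not show that no gene changed in MUT3. At 25 ng/ml, 34 of the 38 members were higher and 4 lower than in untreated MUT3, where 54.3% of all genes were higher. OAS1, BST2, ISG20, IFI35 and IFI44 rose in both wild type clones, no member fell in both, and 15 passed in neither. The like shares of all genes were not counted, so these overlaps describe single genes and not the set. The test was limma on log2(normalized count + 1), in which every clone had its own slope over log2(dose + 1), with Benjamini-Hochberg adjustment over all genes. All libraries shared the same estimate of the spread, so the calls of a clone also depended on the libraries of the other clones. More cells making a transcript and more transcript per cell cannot be told apart in such libraries. The members' slopes had a median of 0.11 in WT6, 0.11 in WT10 and 0.03 in MUT3, against medians of 0.0053, -0.0027 and 0.0033 over all genes, in log2 units per doubling of dose + 1.

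**Figure D1:**
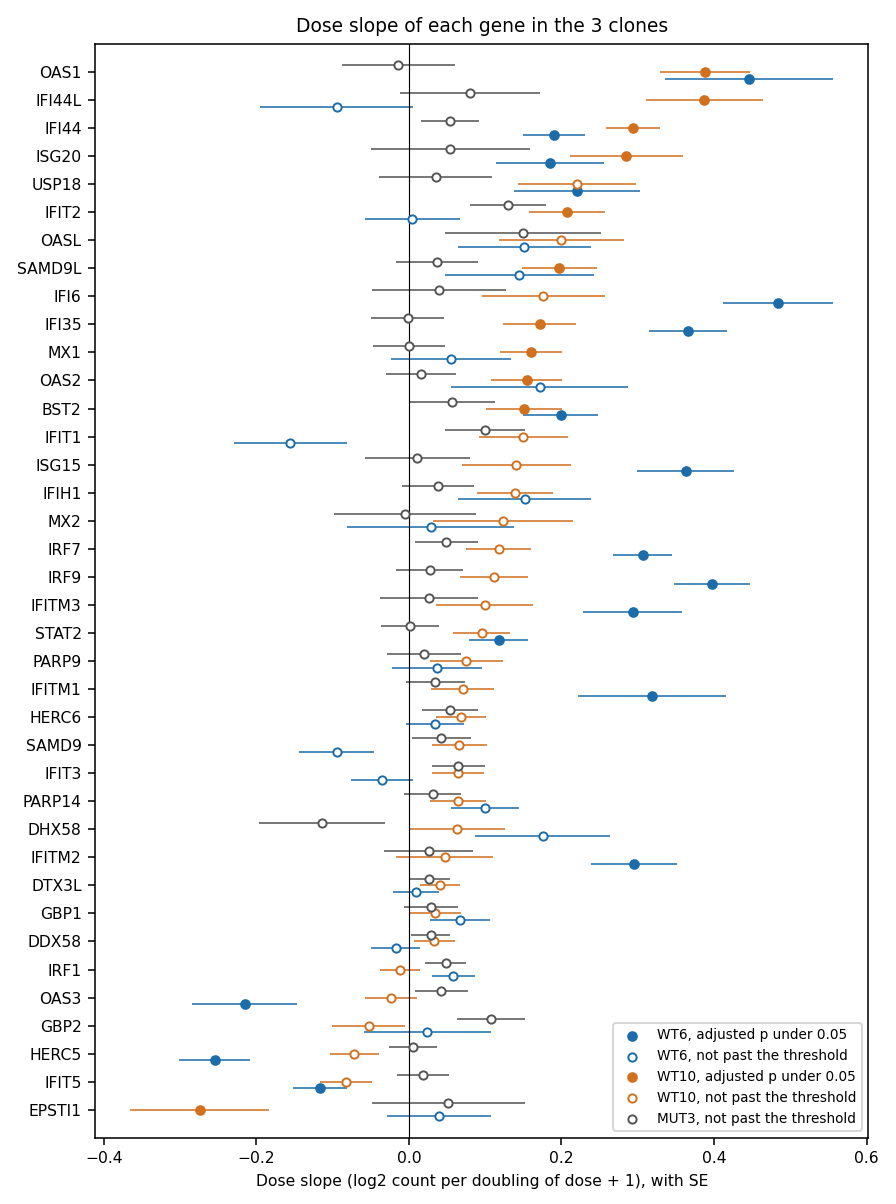
Dose slope with its standard error for the 38 members with a mean of at least 10 in each clone, ordered by the slope in WT10; filled points passed an adjusted p of 0.05 in limma. In WT10, 32 of the 38 points lie above 0, in WT6 30 and in MUT3 33, and the MUT3 points are all open.

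Most of the change in WT10 lay at the highest dose, and in WT6 at 5 and 25 ng/ml. Between 0 and 25 ng/ml the median change of the 38 members was 0.56 in WT6, 0.50 in WT10 and 0.17 in MUT3 on the log2 scale, and 20, 19 and 5 of them rose by more than 0.5, as did 26.1%, 12.9% and 2.44% of all genes. At 5 ng/ml the medians were 0.03, 0.11 and 0.06, and in WT6 14 members were up and 5 down by more than 0.5, against 22.3% and 18.7% of all genes. When the 25 ng/ml libraries were left out, 0 members passed in WT10, where 0.111% of all genes rose and 0.0237% fell, with limma. In WT6 5 members rose and 3 fell (IFIT1, IFIT2 and IFIT3), against 19.1% and 17.97% of all genes. Without the WT6 libraries at 5 and 25 ng/ml, 0 members passed in WT6, where 1.03% of all genes rose and 0.411% fell; 6 members had an unadjusted p under 0.05 in limma, against 15.6% of all genes. In WT10, 6 members rose and 0 fell without the 1 ng/ml libraries, against 4.48% and 3.48% of all genes, and 16 rose and 2 fell without the 5 ng/ml libraries, against 14.9% and 15.5%.

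**Figure D2:**
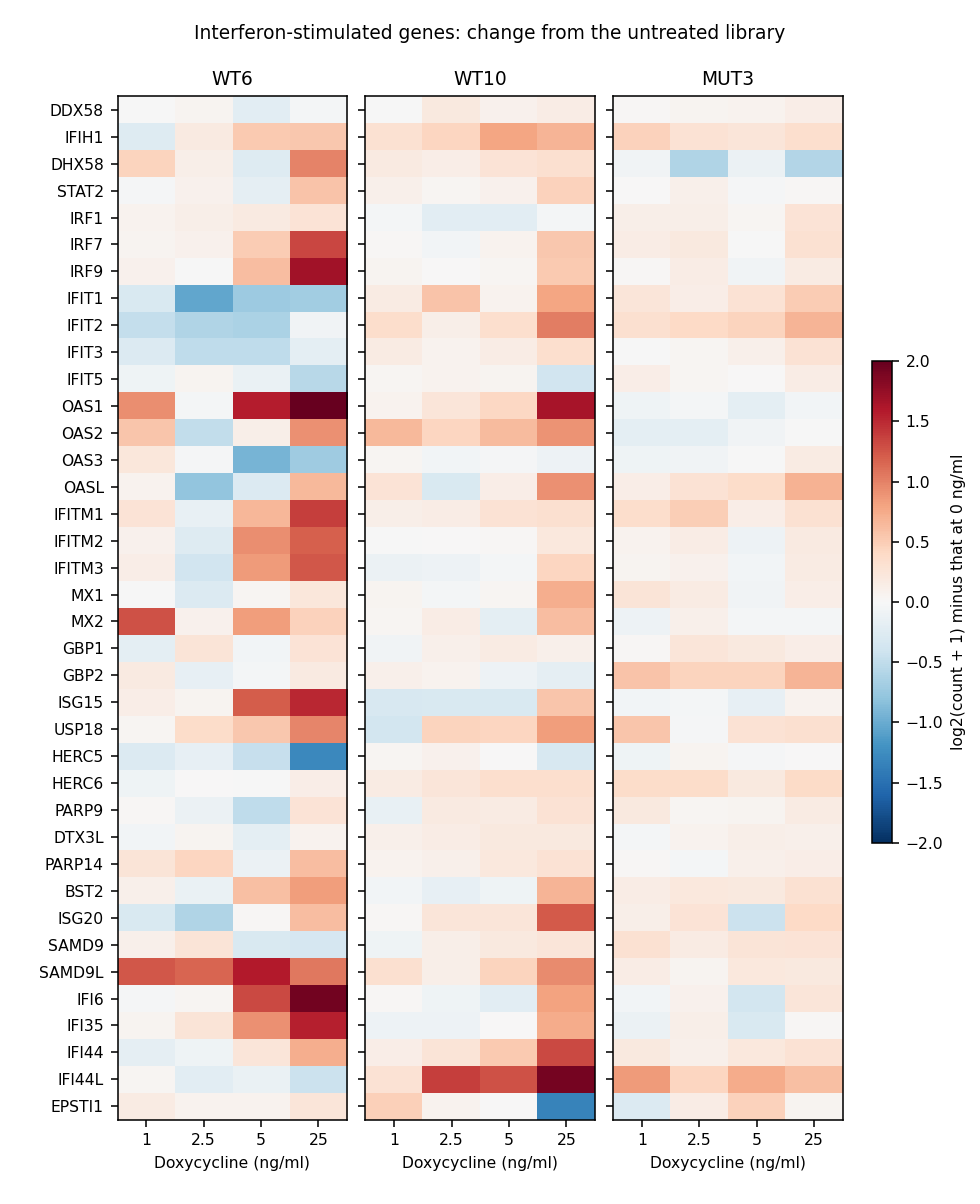
Change of log2(normalized count + 1) from the untreated library of the same clone for the 38 members (rows, by role) at each dose of doxycycline in ng/ml (columns); colours are capped at 2 in either direction. The 25 ng/ml column of WT10 and the 5 and 25 ng/ml columns of WT6 hold most of the strong colours, and the MUT3 panel is pale.

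Transcript length went with the slope in WT6. Of the 20 members no longer than the median tested transcript of 3300 nt, 13 rose and 0 fell in WT6, and of the 18 longer ones 1 rose and 3 fell. The same split ran through the whole transcriptome, where 45.2% of the shorter genes rose and 11.6% fell, and 13.0% of the longer genes rose and 46.1% fell. In WT10 the split was slight, with 6 of 20 shorter and 4 of 18 longer members rising, against 11.3% and 9.13% of all genes of those lengths. When the trend of each library with length and GC content was removed, 12 members rose in WT6, 8 of them shorter and 4 longer, where 27.0% of all genes did, and 19 rose in WT10, 11 shorter and 8 longer, where 15.5% did. BST2, IFI44, IFITM1, ISG20, OAS3 and USP18 then no longer passed in WT6, while DTX3L, IRF1 and PARP14 newly rose there. All 11 members that had passed in WT10 still did, EPSTI1 still falling. DTX3L, IFI6, IFIH1, IRF7, IRF9, ISG15, OASL, PARP14 and STAT2 newly rose in WT10, and HERC5 and IFIT5 newly fell. Of all genes, 20.9% of the shorter and 20.2% of the longer ones fell in WT10.

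**Figure D3:**
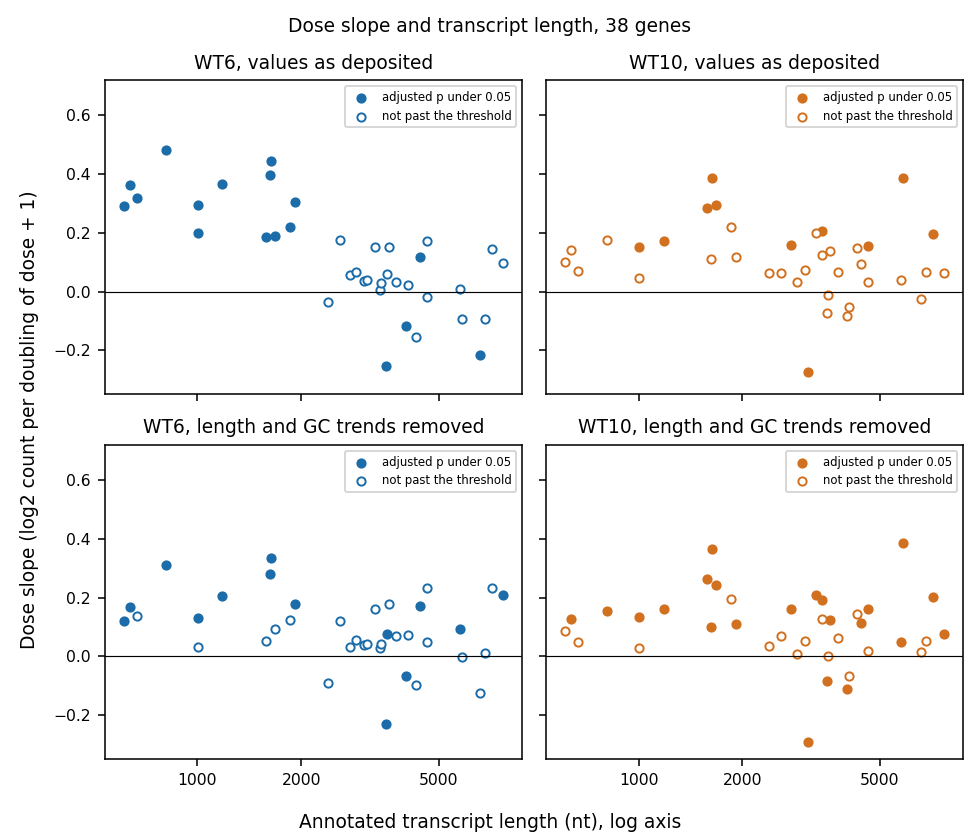
Dose slope of the 38 members against annotated transcript length (log axis) in WT6 and WT10, before and after the trend of each library with length and GC content was removed; filled points passed an adjusted p of 0.05 in limma. As deposited, 13 of the 14 filled points above 0 in WT6 sit at lengths up to 3300 nt; after removal the WT6 slopes of the short members are smaller.

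The sensors of foreign RNA did not pass the test in any clone. DDX58 (RIG-I) and IFIH1 (MDA5) recognise viral RNA in the cytoplasm and DHX58 modulates them. Their slopes lay between -0.02 and 0.18 in WT6, between 0.03 and 0.14 in WT10 and between -0.11 and 0.04 in MUT3.

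Of the 4 transcription factors, STAT2, IRF7 and IRF9 rose in WT6, and none passed in WT10. With each clone fitted alone, all 3 rose in WT10 (adjusted p = 0.022 for STAT2, 0.027 for IRF7 and 0.025 for IRF9, limma), and STAT2 did not pass in WT6 (adjusted p = 0.12). IRF9 is the DNA-binding partner of STAT2. IRF9 read 214, 227, 213, 329.7 and 684 normalized counts in WT6, 521, 542, 526, 537 and 753 in WT10 and 638, 645, 709.7, 605 and 713 in MUT3. The first 3 WT6 libraries lay close together and the 25 ng/ml library was 3.20 times the untreated one, so that WT6 came up to the level of the other clones, and in WT10 only the 25 ng/ml library stood above the rest. The slope of IRF9 was 0.40 ± 0.050 (SE) in WT6 (adjusted p = 2.5e-05) and 0.11 ± 0.044 (SE) in WT10 (adjusted p = 0.090, limma), and it differed between them by 0.29 ± 0.067 (SE) (adjusted p = 0.020). IRF7, which drives transcription of the interferon alpha genes, had 582, 605, 619.8, 828 and 1469 in WT6, 371, 376, 357, 388 and 537 in WT10 and 500.2, 553, 572, 499 and 617 in MUT3. It too was highest at 25 ng/ml in each clone, at 2.52, 1.45 and 1.23 times its untreated count, and its WT6 slope was 0.31 ± 0.038 (SE). With length and GC trends removed, the WT6 slopes of IRF9 and IRF7 were 0.28 and 0.18 and still passed. STAT2 counted 656, 643, 700.0, 580.4 and 980.3 in WT6, 848, 906, 876, 903 and 1174 in WT10 and 870.4, 877, 929, 860.0 and 883 in MUT3, so its rise in WT6 rested on the 25 ng/ml library. IRF1, an activator that responds mainly to type II interferon, ran at 488, 509.5, 530.3, 552 and 589 in WT6, 1127, 1093, 975, 976 and 1094 in WT10 and 785, 850.1, 856, 809 and 948 in MUT3. No slope of IRF1 passed in the main test.

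**Figure D4:**
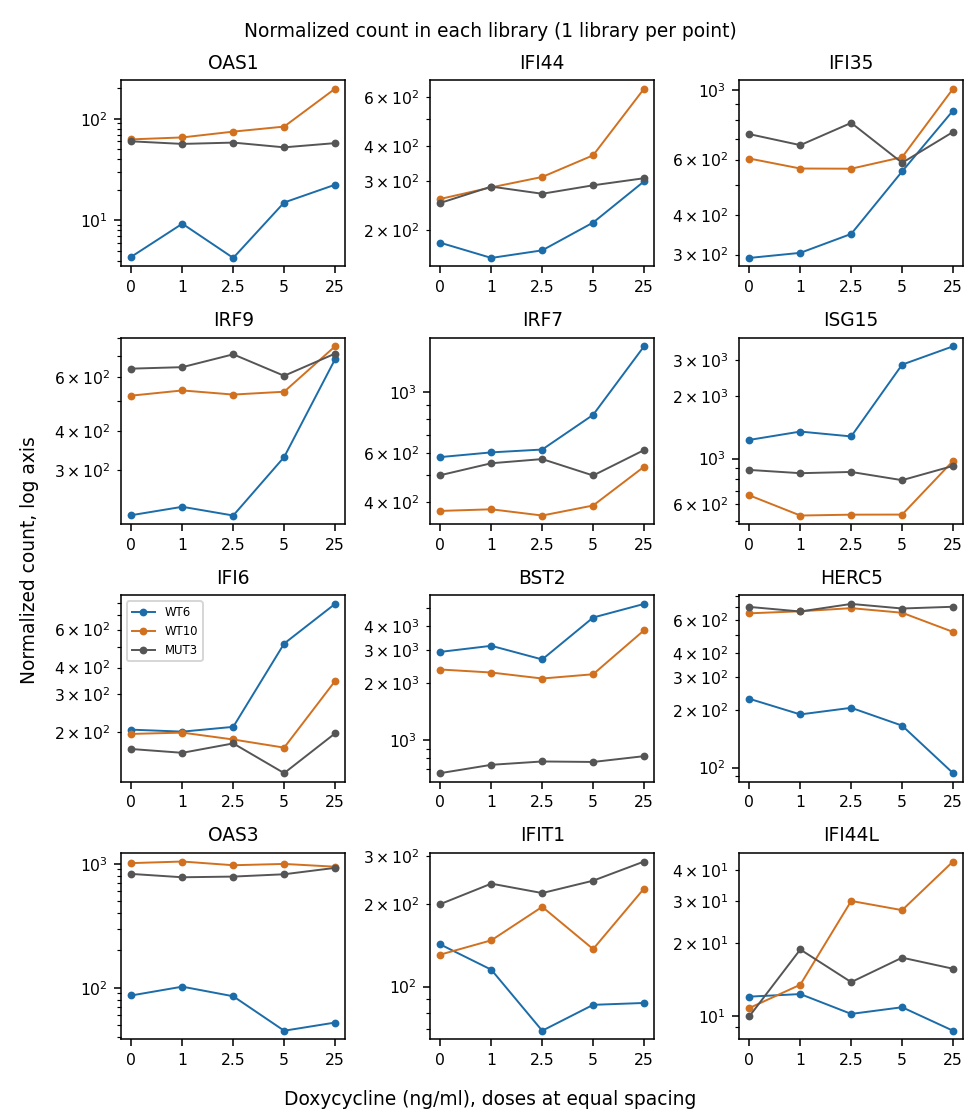
Normalized count (log axis, own range in each panel) of 12 members in each library against doxycycline in ng/ml, drawn at equal spacing; each point is 1 library. At the highest dose OAS1, IFI44, IFI35 and BST2 stand above their untreated counts in WT6 and WT10 alike, HERC5 and OAS3 are far lower in WT6 than in the other clones, and IFI44L rises in WT10 but not in WT6.

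OAS1 and IFI44L had the steepest slopes of the members in WT10, and OAS1 was the second steepest in WT6 with the values as deposited. The OAS enzymes make 2-5A, the messenger that activates the RNA-degrading enzyme RNase L, and OAS1, OAS3 and OAS2 sit side by side on chromosome 12 (hg19, chr12:113343661-113371024, chr12:113375856-113414265 and chr12:113416200-113449528). OAS1 read 62.7, 65.6, 74.8, 83.8 and 198 normalized counts in WT10, 4.38, 9.26, 4.26, 14.99 and 22.4 in WT6 and 60.03, 56.6, 58.3, 52.4 and 57.6 in MUT3. The WT10 library at 25 ng/ml held 3.15 times the count of the untreated one, the WT6 counts were a few reads at low dose, and the MUT3 counts stayed between 52.4 and 60.03. The slope was 0.39 ± 0.059 (SE) in WT10 (adjusted p = 0.00056), 0.45 ± 0.11 (SE) in WT6 (adjusted p = 0.0034) and -0.01 ± 0.074 (SE) in MUT3, and WT10 exceeded MUT3 by 0.40 ± 0.095 (SE) (adjusted p = 0.025, limma). OAS2 counted 128, 199.6, 173, 197 and 238 in WT10, 8.77, 13.4, 5.97, 9.54 and 17.4 in WT6 and 220.1, 193, 192, 209 and 220.0 in MUT3, and rose in WT10, with a slope of 0.15 ± 0.047 (SE), while that of 0.17 ± 0.12 (SE) in WT6 did not pass. OAS3 went the other way in WT6, where 86.6, 102, 85.3, 44.96 and 52.3 were read, against 1010.4, 1041, 971, 995 and 945 in WT10 and 827, 777, 787, 821 and 925 in MUT3. Its WT6 libraries at 5 and 25 ng/ml lay below those of the lower doses. The WT6 slope of OAS3 was -0.22 ± 0.069 (SE) (adjusted p = 0.015, limma), which no longer passed once the length trend was removed. The OAS-like gene OASL had slopes of 0.15, 0.20 and 0.15 in WT6, WT10 and MUT3, none of which passed.

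The IFIT genes, whose proteins bind viral RNA and block its translation, did not move together. IFIT2 rose in WT10, at 226, 287, 245, 285 and 460.1, while WT6 read 193, 139, 126, 124 and 183 and MUT3 226, 284, 298, 307 and 365. In MUT3 the untreated library was lowest and the 25 ng/ml library highest as in WT10, and when MUT3 was fitted alone IFIT2 was the 1 member of 40 to pass, where 1.33% of all genes did. IFIT1 counted 142, 115, 69.1, 85.8 and 87.2 in WT6, against 131, 148, 195, 137 and 228 in WT10 and 200.1, 238, 219, 243 and 286 in MUT3. Its slopes in WT6 and WT10, -0.16 ± 0.074 (SE) and 0.15 ± 0.058 (SE), did not pass on their own, but differed by -0.31 ± 0.094 (SE) (adjusted p = 0.044, limma). IFIT5 counted 578, 546, 599, 527 and 391 in WT6, 658, 675, 694, 687 and 502 in WT10 and 682, 749, 699, 683 and 752 in MUT3. The 25 ng/ml library was its lowest in WT6 and in WT10, and the slope passed in WT6. IFIT3 had slopes of -0.03, 0.06 and 0.06, none of which passed. Without the 25 ng/ml libraries the WT6 slopes of IFIT1, IFIT2 and IFIT3 were -0.36, -0.25 and -0.21 and passed (adjusted p = 0.043, 0.034 and 0.012, limma). The annotation places LIPA on the opposite strand over part of IFIT1, IFIT2 and IFIT3, and no source states whether the libraries kept the strand, so reads of LIPA cannot be told apart from theirs there.

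The IFITM genes, which restrict virus entry at the membrane, rose in WT6, all 3 of them. In WT10 and MUT3 none passed, but the slope in WT6 did not differ from that in WT10 by the test (adjusted p = 0.11, 0.060 and 0.14 for IFITM1, IFITM2 and IFITM3, limma), and IFITM3 rose in WT10 when that clone was fitted alone (slope 0.10, adjusted p = 0.033). IFITM3 was the member with the highest count in every clone and also per kilobase of transcript, at 12401, 5930 and 9276 normalized counts per kilobase in WT6, WT10 and MUT3. Its libraries read 5399, 5898, 4142, 9733 and 12713 normalized counts in WT6, 3499.7, 3242, 3265, 3393 and 4717 in WT10 and 5462, 5691, 5814, 5241 and 6129 in MUT3. IFITM2 counted 831, 885, 696, 1578 and 1907 in WT6, 502, 499, 506, 509 and 582 in WT10 and 1008, 1063, 1115, 939 and 1145 in MUT3. IFITM1 was far scarcer in WT6, at 14.2, 17.5, 12.8, 23.2 and 38.6, than in WT10, at 261, 282, 289, 320.3 and 327, or in MUT3, at 325, 415, 458, 357 and 403. In WT6 the 5 and 25 ng/ml libraries were the highest for each of the 3, which are among the shortest transcripts of the list at 611 to 1006 nt, and slopes ran from 0.29 to 0.32. With the length trend removed the slopes of IFITM2 and IFITM3 were 0.13 and 0.12 and passed, and that of IFITM1 did not. The 3 genes are close copies of each other, so the share of reads each was given is uncertain.

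ISG15 and its partners moved apart. ISG15 is a ubiquitin-like protein that is joined to other proteins, HERC5 is the main ligase for it, and USP18 takes it off. ISG15 read 1232, 1352, 1281, 2849 and 3494 normalized counts in WT6, 664, 530.4, 536, 536 and 974 in WT10 and 882, 850.1, 862, 787 and 922 in MUT3. WT6 jumped between 2.5 and 5 ng/ml, while WT10 was below its untreated count at 1 to 5 ng/ml and 1.47 times that count at 25 ng/ml. The slope of ISG15 was 0.36 ± 0.063 (SE) in WT6 (adjusted p = 0.00029) and 0.14 ± 0.072 (SE) in WT10 (adjusted p = 0.18, limma). Its WT6 slope was 0.17 with length and GC trends removed. HERC5 counted 230.1, 190.4, 206, 166 and 93.4 in WT6, 649, 665, 691, 654 and 518 in WT10 and 702, 664, 727, 688 and 703 in MUT3. In WT6 and WT10 it was lowest at 25 ng/ml, at 0.406 and 0.798 times untreated. Its WT6 slope was -0.25 ± 0.046 (SE) (adjusted p = 0.00037, limma), and WT6 minus WT10 was -0.18 ± 0.056 (SE) (adjusted p = 0.043). USP18 was scarce, with 10.96, 11.3, 14.5, 16.3 and 22.4 in WT6, 15.1, 11.6, 20.9, 20.7 and 27.98 in WT10 and 20.01, 29.97, 19.8, 24.8 and 25.1 in MUT3, and its slope of 0.22 ± 0.083 (SE) in WT6 passed while the like value of 0.22 ± 0.077 (SE) in WT10 did not. HERC6 did not pass in any clone.

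Of the Mx and guanylate-binding GTPases, which trap viral and bacterial particles, MX1 alone passed. It counted 224, 232, 217, 230.1 and 372 in WT10, 37.3, 37.1, 30.7, 38.1 and 43.6 in WT6 and 149, 179, 166, 142 and 162 in MUT3, with the WT10 library at 25 ng/ml 1.66 times the untreated one and the other 4 WT10 libraries within a narrow band. Its slope was 0.16 ± 0.041 (SE) in WT10 (adjusted p = 0.013, limma). The annotation places TMPRSS2 on the opposite strand over part of MX1. Slopes of MX2, GBP1 and GBP2 lay between -0.05 and 0.12 in WT10 and between 0.02 and 0.07 in WT6. PARP9 and DTX3L, which form a complex and overlap each other on opposite strands, and PARP14 had slopes of 0.04 to 0.08 in WT10 and 0.01 to 0.10 in WT6. None of these slopes passed in the main test.

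BST2 and ISG20 rose in both wild type clones. BST2 (tetherin) holds budding virus at the cell surface. It read 2358, 2273, 2113, 2226 and 3799 normalized counts in WT10, 2922, 3146, 2665, 4436 and 5234 in WT6 and 669, 740.3, 771, 766 and 822 in MUT3. The 25 ng/ml library was highest in all 3 clones, 1.61, 1.79 and 1.23 times untreated, and MUT3 lay below both wild type clones at every dose. ISG20, an RNA exonuclease, counted 54.1, 54.97, 63.8, 64.4 and 128 in WT10, 84.4, 67.9, 55.4, 85.8 and 129.5 in WT6 and 27.5, 29.97, 33.6, 20.2 and 36.7 in MUT3. Its WT10 count changed little up to 5 ng/ml and was 2.38 times untreated at 25 ng/ml. SAMD9L, which stalls protein synthesis during poxvirus infection, had 141, 176, 153, 192 and 273 in WT10, 12.1, 29.9, 28.1, 38.1 and 26.2 in WT6 and 138, 152, 143, 159 and 157 in MUT3. It rose in WT10, with a slope of 0.20 ± 0.050 (SE) (adjusted p = 0.012, limma), while in WT6 the untreated library was the low one and the slope of 0.14 ± 0.098 (SE) did not pass. Its neighbour SAMD9 had slopes of -0.09 and 0.07, which did not pass. RSAD2 (viperin) and CMPK2 overlap on opposite strands. RSAD2 was at 0 to 7.47 normalized counts and CMPK2 at 0 to 3.11, at or near the level of 3 reads, which corresponds to 1.19 to 4.09 normalized counts depending on the library.

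Among the remaining interferon-induced genes, whose functions are less settled, IFI44 and IFI35 rose in both wild type clones. IFI44 (hg19, chr1:79115481-79129763) counted 259, 285, 310.2, 371 and 645 in WT10, 179.7, 159, 169, 213 and 299 in WT6 and 250.1, 286, 269.8, 289 and 307 in MUT3. The WT10 counts were higher at each dose than at the one below, up to 2.49 times untreated. The WT10 slope of 0.29 ± 0.036 (SE) (adjusted p = 9.4e-05) exceeded that of MUT3 by 0.24 ± 0.052 (SE) (adjusted p = 0.017, limma). Its neighbour IFI44L (hg19, chr1:79085587-79111830) counted 10.8, 13.5, 29.9, 27.4 and 43.5 in WT10, 12.1, 12.4, 10.2, 10.9 and 8.72 in WT6 and 10.004, 18.9, 13.8, 17.5 and 15.7 in MUT3. Its slope was 0.39 ± 0.076 (SE) in WT10 (adjusted p = 0.0029) and -0.09 ± 0.10 (SE) in WT6, a difference of -0.48 ± 0.13 (SE) (adjusted p = 0.027, limma).

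IFI35, which interacts with NMI in the cytoplasm, counted 605, 562, 561, 611 and 1007 in WT10, 293, 304, 349, 550.4 and 858 in WT6 and 723, 667, 785, 586 and 734 in MUT3. Its mean wild type slope exceeded that of MUT3 by 0.27 ± 0.059 (SE) (adjusted p = 0.0062, limma). IFI6, a mitochondrial and endoplasmic reticulum protein that protects cells from death, counted 206, 202, 212, 516 and 789 in WT6, 197, 199.6, 186, 170.1 and 346 in WT10 and 168, 161, 178, 129.6 and 198 in MUT3. It had the steepest slope of the members in WT6, 0.48 ± 0.072 (SE) (adjusted p = 8.9e-05), and 0.18 ± 0.080 (SE) in WT10 (adjusted p = 0.13, limma), where only the 25 ng/ml library was high. With length and GC trends removed, the WT6 slope of IFI6 was 0.31, under the 0.33 of OAS1. EPSTI1 counted 30.3, 42.4, 31.9, 30.6 and 11.4 in WT10, 49.3, 55.6, 52.01, 51.8 and 58.5 in WT6 and 15.01, 12.2, 16.8, 21.1 and 15.7 in MUT3. It was the member that fell in WT10, by its 25 ng/ml library alone, and WT6 was the clone with most of it at every dose.

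IFI27, XAF1 and TRIM22 reached a mean of 10 in only some clones and were tested with each clone fitted alone. In those fits 13 of 39 members passed in WT6, where 31.3% of all genes passed in either direction. In WT10 17 of 41 passed, all of them rising, where 28.1% of all genes passed in either direction. Beside the factors named above, IFI6, IFITM3 and OASL then passed in WT10 and EPSTI1 no longer did, and in WT6 IFIT5, ISG20, OAS3, STAT2 and USP18 no longer did. IFI27 counted 9.86, 7.21, 10.2, 17.7 and 34.9 in WT6, 9.74, 14.5, 13.96, 11.9 and 21.8 in WT10 and 6.25, 3.33, 3.95, 3.68 and 5.24 in MUT3, and rose in WT6 (slope 0.46, adjusted p = 0.016, limma) and did not pass in WT10 (slope 0.20, adjusted p = 0.13). XAF1, which counters an inhibitor of apoptosis, counted 77.9, 85.8, 81.8, 101 and 156 in WT10, 80.04, 105, 101, 93.7 and 80.7 in MUT3 and 1.10, 4.12, 2.56, 2.72 and 4.98 in WT6. It rose in WT10 (slope 0.23, adjusted p = 0.0062, limma) and had a slope of -0.02 in MUT3, a difference that was not tested. TRIM22, an antiviral ubiquitin ligase that overlaps TRIM5 on the opposite strand, counted 104, 82.9, 96.7, 94.2 and 109 in WT10, 61.3, 69.9, 57.3, 79.9 and 75.4 in MUT3 and 3.29, 6.18, 3.41, 1.36 and 1.25 in WT6, and did not pass. XAF1 and TRIM22 were at 1 to 6 reads in the WT6 libraries.

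The mean of the WT6 and WT10 slopes was then compared with that of MUT3. It was higher for IRF7, IRF9, OAS1, ISG15, IFI35 and IFI44 and lower for OAS3 and HERC5, 6 and 2 of 38 members against 10.1% and 14.6% of all genes. In WT10 against MUT3, the clones that share a parental line, OAS1 and IFI44 were higher and 0 members lower, against 2.66% and 2.97% of all genes. With an unadjusted p under 0.05 there were 8 members, against 22.3% of all genes. In WT6 against WT10, IRF7 and IRF9 had the higher slope in WT6 and IFIT1, HERC5 and IFI44L the lower, 2 and 3 of 38 against 7.28% and 7.09% of all genes. These differences between slopes did not pass without the 25 ng/ml libraries, where 1, 0 and 7 of the 12644 genes passed in the 3 comparisons. With length and GC trends removed instead, IFI44 and OAS3 no longer passed for the mean wild type slope, and IFI6, IFIT5, PARP14 and STAT2 newly did. In WT10 against MUT3, IFI44 was lost (adjusted p = 0.051, limma) and IFI35, IFIT5, MX1 and STAT2 were gained. In WT6 against WT10, HERC5, IFIT1 and IRF7 were lost (adjusted p = 0.052, 0.12 and 0.19, limma) and PARP14 was gained. Without the 1 ng/ml libraries 2 members passed for the mean wild type slope against MUT3, both higher, against 2.67% higher and 4.01% lower of all genes, and 0 passed in the other comparisons, where 0 and 4 genes did. Without the untreated libraries 6, 1 and 0 members passed, while 638 genes were higher and 918 lower, 68 and 41, and 4 and 1. In MUT3 itself 2 members had an unadjusted p under 0.05 in limma (IFIT2 and GBP2), 1 in edgeR and 1 in DESeq2, against 2.33%, 2.27% and 1.86% of all genes, and 0 passed the adjustment in any of the 3.

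Before induction the clones already differed in these genes. In WT6, 24 of 38 members were lower than in WT10 and 4 were higher (IRF7, IFITM2, IFITM3 and ISG15), against 28.8% and 30.8% of all genes, and the median difference was -0.86 on the log2 scale, against 0.03 over all genes. The widest gaps between clone means were those of XAF1, TRIM22, IFITM1, OAS2 and OAS3, at a log2 ratio of 4.63, 4.58, 4.14, 4.11 and 3.72 between the highest and the lowest clone, WT6 being the lowest for each. The fitted untreated level of IFITM1 was -4.35 ± 0.30 (SE) on the log2 scale in WT6 relative to WT10. That of OAS2 was -4.05 ± 0.34 (SE) and that of OAS3 -3.40 ± 0.18 (SE). WT10 and MUT3 differed less. BST2, EPSTI1, HERC6, IRF1 and OAS3 were higher in WT10 and DDX58, IRF7, IFIT1, IFITM1, IFITM2 and IFITM3 lower, 5 and 6 of 38 against 14.3% and 13.9% of all genes. BST2 had the widest gap, 1.53 ± 0.19 (SE) on the log2 scale (adjusted p = 4.8e-05, limma). Without the untreated libraries 2 members were higher and 1 lower, against 5.60% and 5.03% of all genes. Without the 1 ng/ml libraries 2 and 2 were, against 6.78% and 5.81%, and without the 5 ng/ml libraries 8 and 9, against 18.4% and 19.7%.

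**Figure D5:**
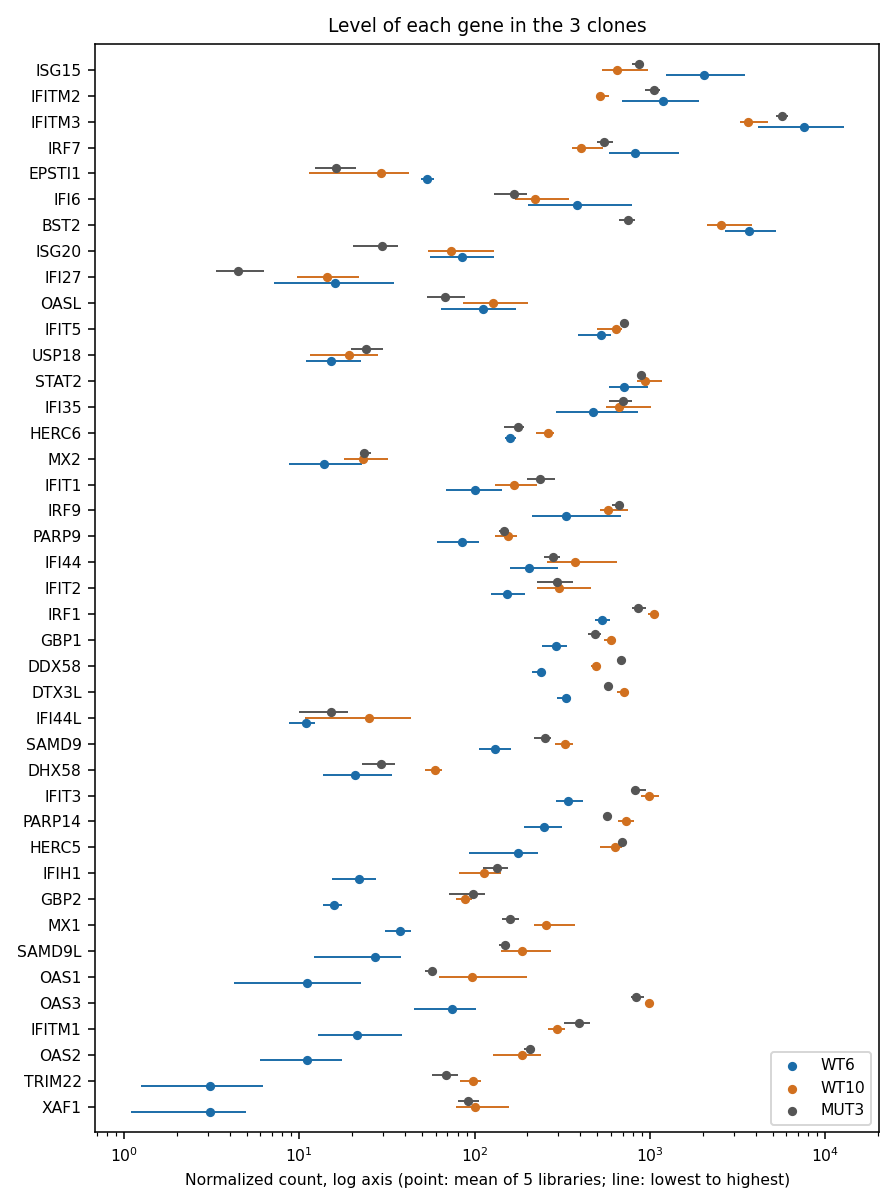
Normalized count (log axis) of the 41 members with a mean of at least 10 in some clone, as the mean of the 5 libraries of a clone with a line from the lowest to the highest library, ordered by the ratio of WT6 to WT10. The WT6 points lie far to the left for XAF1, TRIM22, OAS2, IFITM1 and OAS3, and to the right for ISG15 and IFITM2.

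The genes that start the response were looked at beside the members. The 14 interferon genes listed, IFNB1 among them, had 0 reads in all 15 libraries, which allows up to 3 reads, or 1.19 to 4.09 normalized counts, for each. Of 49 genes of the signalling and sensing pathway, 32 could be tested, and 11 rose and 10 fell in WT6, against 29.2% and 28.3% of all genes, 7 rose and 4 fell in WT10, against 10.2% and 9.83%, and 0 passed in MUT3, with median slopes of 0.0030, 0.0044 and 0.016. TYK2, a kinase of the type I receptor, fell in both wild type clones, by slopes of -0.19 in WT6 and -0.10 in WT10, and the kinase JAK1 passed in neither, at 0.02 and 0.00. Of the type I receptor chains, IFNAR1 rose in WT10 (slope 0.10) and IFNAR2 fell in WT6 (slope -0.12).

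Other genes of the pathway moved in both wild type clones. IFNGR2, a chain of the type II interferon receptor, had the clearest rise of them, with 655, 617, 774, 1030.3 and 1628 in WT10, 1181, 1432, 1807, 2879 and 3668 in WT6 and 754, 825, 791, 741 and 725 in MUT3. Its slope in WT10 exceeded that in MUT3 by 0.34 ± 0.060 (SE) (adjusted p = 0.0085, limma). IKBKE and TLR3, a kinase and a receptor that act in the sensing of viral RNA, and IRF3, the factor they switch on, rose in both wild type clones, with WT10 slopes of 0.22, 0.17 and 0.12. SOCS3, a feedback inhibitor of JAK signalling, fell in both, at -0.18 and -0.13.

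A second list of 34 interferon-stimulated genes outside the 43 had 29 that could be tested. Of these, 8 rose and 0 fell in WT10 and 15 rose and 4 fell in WT6, against the same shares of all genes, and 0 passed in MUT3, and their median slope was 0.10 in WT6, 0.06 in WT10 and 0.02 in MUT3. SLFN5, a member of the Schlafen family, had the smallest adjusted p, with 179.6, 203, 240.4, 324 and 649 in WT10, 126, 124, 136, 169 and 284 in WT6 and 149, 151, 189, 153 and 158 in MUT3. It was higher at each dose than at the one below in WT10, and its WT10 slope was 0.42 ± 0.039 (SE) (adjusted p = 1.1e-05, limma). APOL1 and APOL6, of the apolipoprotein L family, had WT10 slopes of 0.30 and 0.24. C19orf66, PARP12 and SP110 rose in both wild type clones, at 0.18, 0.15 and 0.11 in WT10.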

How the data were processed

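PolyA-selected RNA of 15 libraries was sequenced by the authors as paired 75-base reads, aligned to hg19 with STAR and counted per gene with HTSeq at default settings. The deposited signal values are read counts divided by DESeq size factors. Reads were recovered from the steps of low values: 100% of values were whole multiples within 0.01, and totals were 14955172 to 44771871 reads on genes. Reads assigned to no gene, left out here, made up 56.5% to 59.6% of all reads, and ambiguous ones 0.527% to 0.617%. No deposited column was left unused (0).

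The main test was limma 3.58.1 (R 4.3.3) on log2(normalized count + 1) with vooma weights, an intercept and a slope over log2(dose + 1) per clone, on 12644 genes with a mean of at least 10 in each clone, at a Benjamini-Hochberg threshold of 0.05. Dose trends take the place of replicates. The members and lists were chosen with earlier results of these data known. Every library is given for members past the threshold in a slope or slope difference, for the 3 of highest mean in each clone and for the 5 with the widest ratio of clone means; other members are given by range and counts. From the other lists, 7 pathway genes set by name, IFNB1 among them, and up to 10 genes of smallest adjusted p in WT10 or in the mean wild type slope minus MUT3 are named, except items not reported here. Lengths and GC content came from GENCODE release 44, matched by symbol (91.9% of genes). Alternatives were edgeR 4.0.16 and DESeq2 1.42.0 on the recovered reads, TMM rescaling, pseudocounts of 0.5 and 5, other filters, no weights, doses by order, removal of length and GC trends, each clone fitted alone, and each dose left out. In the edgeR fit 3782 genes rose and 3331 fell in WT6, 1352 and 1137 in WT10 and 1 and 0 in MUT3. The fits were tested on simulated data with known changes.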

Additional observations from a re-analysis of the deposited data

Results flagged for a closer look

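Slopes differed between clones by the limma test of the difference itself, each with an adjusted p under 0.05, for the following members; values are log2 units per doubling of dose + 1. The mean wild type slope minus that of MUT3 was 0.43 for OAS1, 0.27 for IFI35, 0.24 for ISG15, 0.23 for IRF9, 0.19 for IFI44 and 0.16 for IRF7, and it was -0.17 for HERC5 and -0.16 for OAS3. WT10 minus MUT3 was 0.40 for OAS1 and 0.24 for IFI44. WT6 minus WT10 was 0.29 for IRF9 and 0.19 for IRF7, and it was -0.18 for HERC5, -0.31 for IFIT1 and -0.48 for IFI44L. With length and GC trends removed, IFI44 and OAS3 no longer passed for the mean wild type slope and IFI44 no longer did for WT10 minus MUT3. HERC5, IFIT1 and IRF7 no longer passed for WT6 minus WT10.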

How the results depend on the processing

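No paired analysis was possible because each clone and dose had 1 library. Pseudocounts, TMM and a mean of at least 1 left every count of members within 1.5 times, as did edgeR; DESeq2 gave 8 members differing between WT6 and WT10 in place of 5, and no filter gave 2. Coding doses by order gave 7 members in WT10, 5 for the mean wild type slope against MUT3 and 0 for WT10 against MUT3, and no weights gave 1 for the last. With length and GC trends removed, WT10 had 22, WT10 against MUT3 5, WT6 against WT10 3, and the untreated level of WT10 against MUT3 21. The shares of all genes moved too. Of the shorter genes, 15.5% rose and 20.9% fell in WT10 then, against 11.3% and 8.68% as deposited. Of the longer ones, 15.5% rose and 20.2% fell, against 9.13% and 11.5%. MUT3 fitted alone had 1. Leaving out each dose in turn gave 8 to 18 members in WT6, 0 to 18 in WT10, 0 to 12 for the mean wild type slope against MUT3, 0 to 2 for WT10 against MUT3, 0 to 9 for WT6 against WT10 and 3 to 17 for the untreated level of WT10 against MUT3; the lowest slope counts came without 25 ng/ml. The cause of these changes was not tested. Counts in this section are of members alone. The shares of all genes also changed between settings, so these counts do not set the members apart from other genes.

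Chosen after seeing the data, leaving out WT6 at 5 and 25 ng/ml gave 0 members in WT6 and 0 for WT6 against WT10. For the mean wild type slope against MUT3 it gave 2, IFIT1 and IFIT3, both lower than MUT3. The members that had differed there in the main test no longer passed. In WT10 all members called in the main test kept their call. Further members rose there, and HERC5 and IFIT5 newly fell. In WT10 against MUT3, STAT2, SAMD9L and IFI35 newly passed beside OAS1 and IFI44. WT6 slopes then changed sign to -0.066 for BST2, -0.056 for IFI44, 0.025 for IFIT5, -0.063 for IFITM1, -0.13 for IFITM2, -0.19 for IFITM3 and -0.33 for ISG20, and the difference between WT6 and WT10 to -0.069 for IRF7 and -0.11 for IRF9. Without the 25 ng/ml library of the clone alone, 8 members passed in WT6 and 0 in WT10, and slopes changed sign to -0.041 for ISG20 and -0.045 for STAT2 in WT6 and -0.043 for BST2 in WT10. Over the doses left out in turn, these slopes ran from -0.041 to 0.30, -0.045 to 0.16 and -0.043 to 0.22. Of single results under all alternatives, 1115 kept their direction and side of the threshold, 214 lost the call and 15 reversed. With 3 reads corresponding to 1.19 to 4.09 normalized counts, changes of OAS1, IFI44L, USP18 and IFITM1 in WT6 rest on few reads.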

Other observations

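Further genes of the pathway list and of the second list of interferon-stimulated genes, chosen after their values were seen, gave these values. UBA7, the activating enzyme for ISG15, read 308, 290.3, 293, 305 and 575 normalized counts in WT10, 119, 130, 122, 116 and 233 in WT6 and 210, 179, 206, 171 and 223 in MUT3. Its 25 ng/ml library stood above the others in both wild type clones, and the slope was 0.21 in each of them (limma, adjusted p = 0.013 in WT10 and 0.017 in WT6). The mean wild type slope of UBA7 did not differ from that of MUT3 by the test (adjusted p = 0.087, limma). CASP1, the protease that matures interleukin-1 beta, had slopes of 0.19 in WT6 and 0.17 in WT10 that passed and 0.07 in MUT3, but the mean wild type slope did not differ from that of MUT3 by the test (adjusted p = 0.11, limma). PSMB9, an immunoproteasome subunit, rose more steeply in WT6 than in WT10, by 0.25 (adjusted p = 0.029, limma). IL28RA, of the pathway list, is the receptor chain for type III interferon. It read 169, 165, 153, 134 and 80.8 in WT10, 36.2, 20.6, 30.7, 13.6 and 19.9 in WT6 and 36.3, 46.6, 73.1, 63.4 and 80.7 in MUT3. The counts fell in WT10 and were higher in MUT3 at each treated dose than without doxycycline, and the WT10 slope was below that of MUT3 by -0.43 ± 0.093 (SE) (adjusted p = 0.017, limma).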
